A study of Mus musculus with 8 samples.

Results

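The Fc receptor genes described here encode the receptors through which leukocytes bind the constant part of IgG, with the signalling chain they share. They were chosen by name as Fcgr1, Fcgr2b, Fcgr3, Fcgr4 and Fcer1g. All 5 were found by their Ensembl IDs among the 15917 genes of the deposited count table, and all 5 passed the filter on low counts. The cells were eosinophils, granule-bearing leukocytes of type 2 immunity, from the blood of C57BL/6 mice of the IL-5 transgenic line NJ.1638, whose genotype label reads WT. The labels name no promoter for the transgene and give neither age nor sex. T and B cells were depleted on CD90 and B220 beads, the purity read from a stain was above 97%, and all cells were then cultured for 18 h. Experiment 1 compared cells given IFN-γ with TNF-α, both at 15 ng/mL (E1), and cells given no cytokine (CN). Experiment 2 compared cells given IL-4, GM-CSF and IL-5 at 10 ng/mL plus IL-33 at 30 ng/mL (E2) and cells given only IL-5 at 10 ng/mL (E0). Each group held 2 libraries of stranded mRNA sequencing, 8 in all.

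Mouse Fc receptors for IgG fall into an activating and an inhibitory arm. The activating receptors Fcgr1, Fcgr3 and Fcgr4 bind IgG and signal through the immunoreceptor tyrosine-based activation motif (ITAM) of the γ chain encoded by Fcer1g, which they also need to reach the cell surface. Src family kinases phosphorylate that motif and Syk is recruited to it. The inhibitory receptor Fcgr2b carries an inhibitory motif in its own tail and recruits the lipid phosphatase SHIP-1. In eosinophils and other myeloid cells the balance between the arms sets the threshold at which IgG immune complexes trigger degranulation and phagocytosis.

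The libraries held 60809057 to 95065752 counts, so 3 counts in 1 library, the limit that a count of 0 would allow, came to 0.0316 to 0.0493 CPM (counts per 1000000 counts in genes, given below after TMM scaling). These limits cover counting error only. The labels do not say whether the 2 libraries of a group came from separate animals, and p-values measure only the spread between such libraries. That spread included a difference of sex in every group, which the test described below did not model. In the replicate 1 libraries 4 Y-linked genes summed to 184.9 to 244.8 CPM and Xist lay at or below 0.193 CPM, while in the replicate 2 libraries the sums were 0.541 to 1.49 CPM and Xist lay at 795.7 to 1142 CPM. All 10 eosinophil marker genes on the list were measured. They summed to 6568 and 5741 CPM in E1, 7569 and 7317 CPM in CN, 4339 and 4396 CPM in E2, and 6784 and 6702 CPM in E0. Most of each sum came from Alox15 and Ccr3. Markers of the labelled cell type were thus present in every library, although these sums were lower in E2 than in E0. By the test described below, 2 of the 10 were higher and 7 lower in E2 against E0, where 35.5% of all genes passed it. In E1 against CN, 0 were higher and 2 lower, where 17.3% of all genes passed. The E1 sums lay below those of the monocyte, macrophage and dendritic cell list given below. Such sums do not measure purity.

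Abundant Fc receptor transcripts were those of Fcer1g, Fcgr3 and Fcgr2b, while Fcgr1 and Fcgr4 were scarce. Per kilobase of exon, Fcer1g averaged 466 ± 10.7 CPM per kb in E1, 322 ± 10.9 in CN, 453 ± 34.6 in E2 and 299.7 ± 21.8 in E0 (SD, n = 2 each, as for all values after ±). Fcgr3 followed with 272 ± 5.07 CPM per kb in E1, 252 ± 28.5 in CN, 199 ± 6.40 in E2 and 242 ± 1.70 in E0. Fcgr2b came next at 109 ± 13.5, 182 ± 29.7, 131 ± 1.79 and 136 ± 2.52 CPM per kb in the same groups. This order, Fcer1g above Fcgr3 above Fcgr2b above the other 2, held in all 8 libraries. Fcgr4 stood at 16.8 ± 0.911 CPM per kb in E1, 3.31 ± 0.497 in CN, 1.05 ± 0.0615 in E2 and 5.75 ± 1.40 in E0. Fcgr1 stood at 2.33 ± 0.141, 2.84 ± 0.140, 5.61 ± 0.388 and 2.03 ± 0.838 CPM per kb in those groups. The scarce pair therefore changed places: Fcgr4 lay above Fcgr1 in both E1, both CN and both E0 libraries and below it in both E2 libraries. In CN the 2 neighbours were close, since Fcgr4 per kb was 1.33 and 1.00 times Fcgr1 in its libraries, so that they did not differ beyond that spread. By mean CPM the abundant genes ranked 152 (Fcgr2b), 372 (Fcgr3) and 514 (Fcer1g) among 15913 tested genes, and Fcgr4 and Fcgr1 ranked 8898 and 8941.

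**Figure D1:**
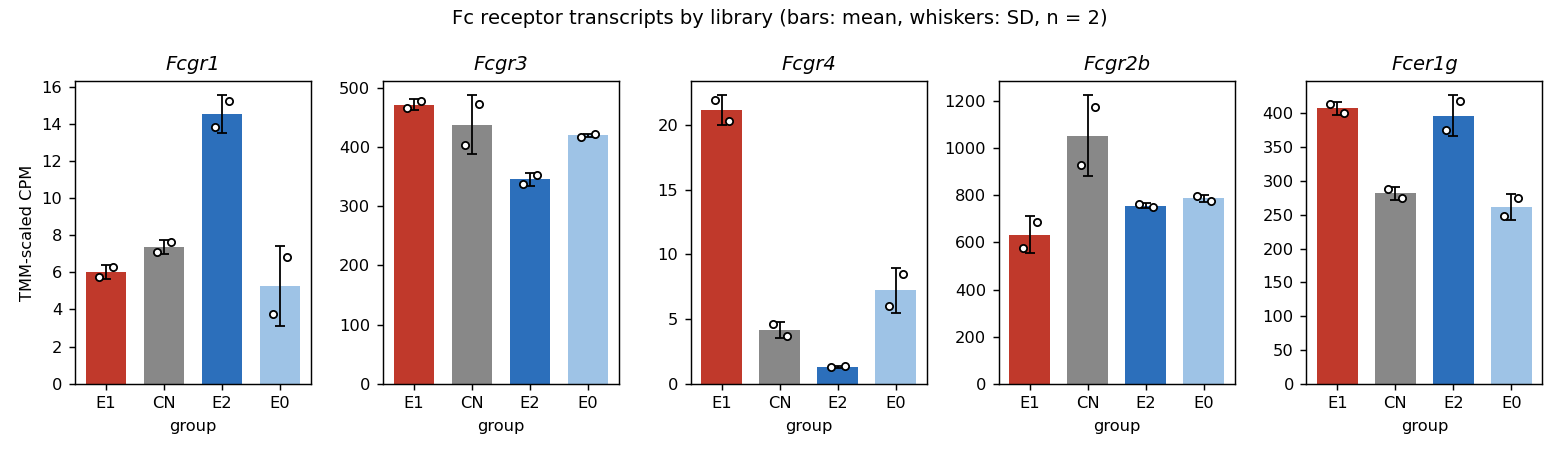
TMM-scaled CPM of the 5 Fc receptor genes (y axis, linear, a separate scale per gene) in groups E1, CN, E2 and E0 (x axis). Bars are group means, whiskers the SD over 2 libraries and points the libraries. Fcgr4 reaches 21.9 and 20.3 CPM in E1 and stands at 1.27 and 1.38 CPM in E2, while Fcgr1 is highest in E2 at 13.8 and 15.2 CPM.

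Reads can be shared between close family members. On chromosome 1 (mm10) lie Fcgr2b (170958617 to 170976547, minus strand), Fcgr4 (171018920 to 171029761, plus strand), Fcgr3 (171051174 to 171064935, minus strand) and Fcer1g (171229572 to 171234365, minus strand), and Fcgr1 lies alone on chromosome 3 (96282909 to 96293969, minus strand). Of the 50-base windows in Fcgr3 transcripts, 9.58% also occurred in Fcgr2b, and 2.92% of those of Fcgr2b occurred in Fcgr3 (4.38% in Fcgr3 or any other gene). Reads of such windows could be split between genes or dropped, so the values of these 2 genes are uncertain. No window of Fcgr1, Fcgr4 or Fcer1g was found in another gene. The antisense gene Gm38204 overlaps 155 of the 5790 exonic bases of Fcgr2b, and its counts came to at most 0.372% of those of Fcgr2b in any library.

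IFN-γ and TNF-α raised the activating receptor Fcgr4 and the shared γ chain and lowered the inhibitory receptor Fcgr2b. In E1 against CN, Fcgr4 was 5.08-fold higher, Fcer1g 1.45-fold higher and Fcgr2b 1.66-fold lower, whereas Fcgr1 and Fcgr3 did not pass the test. These 3 calls among 5 genes (2 higher, 1 lower) stand against 17.3% of all tested genes called, 9.19% higher and 8.08% lower, by edgeR's quasi-likelihood F test (a gene is called where its p, adjusted after Benjamini and Hochberg, is below 0.05). The median log2 fold change of the 5 genes was 0.11, against -0.01 over all genes. In bulk samples such as these, fewer cells of a type and less RNA per cell cannot be told apart.

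Fcgr4, the activating receptor with intermediate affinity for IgG, measured 21.9 and 20.3 CPM in the E1 libraries, against 4.60 and 3.71 CPM in the CN libraries. Both E1 libraries lay far above both CN libraries. Its log2 fold change was 2.34 ± 0.19 (SE, adjusted p = 7.54e-05, edgeR). The RefSeq promoter of Fcgr4 is shown because this gene had the widest range of the 5, with 17.3 times as many CPM in its highest as in its lowest library. It is the 250 bases before the RefSeq start site, chr1:171018676-171018925 (GRCm38.p6, plus strand), and the capitals mark an interferon-stimulated response element (ISRE) and, nearer the start, a PU.1 motif:
Fcgr4: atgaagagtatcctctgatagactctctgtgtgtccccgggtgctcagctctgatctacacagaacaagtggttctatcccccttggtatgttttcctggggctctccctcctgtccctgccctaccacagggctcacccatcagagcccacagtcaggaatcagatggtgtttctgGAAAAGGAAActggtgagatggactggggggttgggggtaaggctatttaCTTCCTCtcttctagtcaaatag

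The motifs were searched on both strands as GAAA and GAAA with any 2 bases between them (ISRE), TTC and GAA with any 3 bases between them (the γ-activated site, GAS), TTC and GAA with any 4 bases between them (the spacing preferred by STAT6) and GAGGAAG (PU.1, a myeloid transcription factor). Fcgr4 held the ISRE letters GAAAAGGAAA from -73 to -64 and the PU.1 letters, on the minus strand, from -23 to -17, counted from the start site, and the 2 matches did not overlap. Among 32817 RefSeq promoters of the same length, 2.97% held the ISRE motif, 7.01% the GAS motif, 5.85% the STAT6 motif and 10.6% the PU.1 motif. A match is a run of letters and shows no binding.

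Fcgr2b, the inhibitory receptor, measured 577.7 and 688.3 CPM in the E1 libraries, against 930.7 and 1174 CPM in the CN libraries. The groups did not overlap, but the 2 CN libraries lay further apart than those of any other group. Its log2 fold change was -0.73 ± 0.13 (adjusted p = 0.00473, edgeR). The 250 bases before its RefSeq start held none of the 4 motifs. Fcer1g, the γ chain, measured 414.2 and 400.9 CPM in E1, against 288.2 and 274.7 CPM in CN. Its libraries were close within each group, and the log2 fold change was 0.53 ± 0.09 (adjusted p = 0.00323, edgeR). No motif was found before its start either.

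Fcgr3, the abundant low-affinity activating receptor, measured 465.5 and 477.9 CPM in E1 and 402.7 and 472.7 CPM in CN. The groups overlapped, and the log2 fold change of 0.11 ± 0.09 did not pass the test (adjusted p = 0.475, edgeR). Fcgr1, the high-affinity receptor, measured 5.77 and 6.28 CPM in E1 and 7.10 and 7.62 CPM in CN. Its 2 E1 libraries lay below both CN libraries, but the log2 fold change of -0.29 ± 0.24 did not pass (adjusted p = 0.482, edgeR). Thus of the 3 activating receptors, 1 was called higher in E1. The E1 and CN libraries did not overlap for 4 of the 5 genes, as for 54.1% of all genes.

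Adding IL-4, IL-33 and GM-CSF to IL-5 gave another picture. In E2 against E0, which share IL-5, Fcgr1 was 2.74-fold higher and Fcer1g 1.51-fold higher, Fcgr4 was 5.47-fold lower and Fcgr3 1.21-fold lower, and Fcgr2b did not pass the test. These 4 calls among 5 genes (2 higher, 2 lower) stand against 35.5% of all tested genes called, 17.0% higher and 18.5% lower. The median log2 fold change of the 5 was -0.06, against -0.02 over all genes.

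Fcgr1 measured 13.8 and 15.2 CPM in the E2 libraries, against 3.73 and 6.80 CPM in the E0 libraries. Both E2 libraries lay above both E0 libraries, which themselves differed widely, replicate 2 being the higher. Its log2 fold change was 1.46 ± 0.24 (adjusted p = 0.00254, edgeR). Its promoter is shown beside that of Fcgr4 because the 2 scarce receptors moved in opposite directions. It spans chr3:96293970-96294219 (GRCm38.p6, minus strand), and the capitals mark a GAS motif and then a PU.1 motif:
Fcgr1: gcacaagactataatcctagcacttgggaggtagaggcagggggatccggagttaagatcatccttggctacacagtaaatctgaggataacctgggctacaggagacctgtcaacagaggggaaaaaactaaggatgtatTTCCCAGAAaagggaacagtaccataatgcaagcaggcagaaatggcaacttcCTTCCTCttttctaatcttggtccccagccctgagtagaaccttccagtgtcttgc
The GAS letters TTCCCAGAA run from -109 to -101, read the same on both strands by the motif, and the PU.1 letters run from -56 to -50. No ISRE and no STAT6 motif was found in this window. Fcgr3 held the PU.1 letters in the windows before both of its RefSeq starts, but these windows overlap almost wholly. The match from -7 to -1 of the first and from -16 to -10 of the second is the same site.

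Fcgr4 measured 1.27 and 1.38 CPM in the E2 libraries, against 5.97 and 8.46 CPM in the E0 libraries. It was close to 1 CPM in both E2 libraries and higher in both E0 libraries, again with E0 replicate 2 above replicate 1. The log2 fold change was -2.45 ± 0.20 (adjusted p = 7.57e-05, edgeR). Fcgr3 measured 337.7 and 353.4 CPM in E2, against 417.8 and 421.9 CPM in E0. The groups did not overlap, but the log2 fold change of -0.28 ± 0.09 was small (adjusted p = 0.0393, edgeR). That call was lost whichever of the 4 libraries was left out, with adjusted p-values of 0.105 to 0.179.

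Fcer1g measured 374.7 and 417.6 CPM in E2, against 248.5 and 275.5 CPM in E0. Every E2 library was above every E0 library, with a log2 fold change of 0.60 ± 0.09 (adjusted p = 0.00122, edgeR). Fcgr2b measured 763.8 and 749.2 CPM in E2 and 798.6 and 778.0 CPM in E0. Although the 4 libraries did not overlap, the log2 fold change of -0.06 ± 0.13 did not pass (adjusted p = 0.745, edgeR). The E2 and E0 libraries did not overlap for any of the 5 genes, as for 73.1% of all genes.

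**Figure D2:**
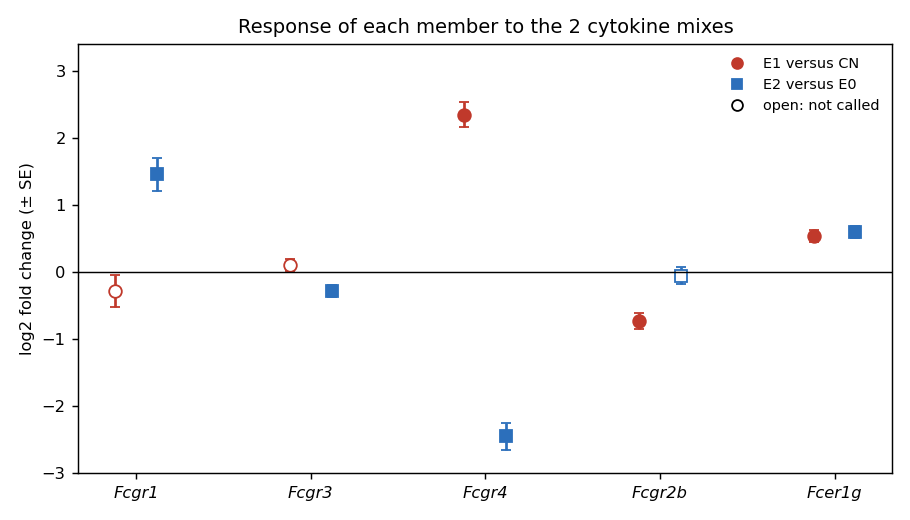
Log2 fold change with its SE (y axis) of each Fc receptor gene (x axis) in E1 versus CN (red circles) and E2 versus E0 (blue squares), with open symbols for values that did not pass the test. Fcgr4 points up at 2.34 and down at -2.45, Fcgr1 up at 1.46 in E2 versus E0, and Fcer1g up at 0.53 and 0.60.

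Whether a gene responded differently to the cytokine mixes was tested as the change of E2 over E0 minus the change of E1 over CN, each taken within its own experiment. Fcgr4 had a difference of -4.80 ± 0.28 on the log2 scale (adjusted p = 1.33e-05, edgeR), the sum of a gain in E1 and a loss in E2. Fcgr1 had 1.74 ± 0.34 (adjusted p = 0.00711) and Fcgr2b 0.67 ± 0.18 (adjusted p = 0.0261). For Fcer1g the difference was 0.06 ± 0.12 (adjusted p = 0.760), and both of its own changes were called higher. Fcgr3 had -0.39 ± 0.13 and lay just above the threshold (adjusted p = 0.0547). It was called by DESeq2 (adjusted p = 0.0187) and with a filter of at least 1 CPM in 2 libraries (adjusted p = 0.0468). The replicate block described below called it too (adjusted p = 0.00253, edgeR). The 3 calls among 5 genes (2 higher, 1 lower) stand against 25.2% of all genes called, 11.3% higher and 14.0% lower. The call for Fcgr2b was lost without CN replicate 2, E0 replicate 1, E0 replicate 2, E1 replicate 1, E2 replicate 1 or E2 replicate 2, with adjusted p-values of 0.0526 to 0.0851. Of the left-out libraries, only CN replicate 2 led to a call for Fcgr3 (log2 -0.51, adjusted p = 0.0155).

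The ratio of the abundant activating receptor to the inhibitory receptor followed from these values. Per kilobase, Fcgr3 stood to Fcgr2b as 2.69 and 2.32 in the E1 libraries, against 1.44 and 1.34 in the CN libraries. In E2 the ratio was 1.47 and 1.57, against 1.74 and 1.81 in E0. The ratio was thus highest in both E1 libraries and lower in both E2 than in both E0 libraries. Of the summed CPM per kb of the 4 IgG receptor genes, the inhibitory Fcgr2b took 25.7% and 28.8% in E1, against 40.3% and 42.2% in CN. Its share was 39.6% and 38.1% in E2, against 35.8% and 34.7% in E0. The rest belonged to the 3 activating genes, most of it to Fcgr3. These shares are of transcripts per length and say nothing of protein at the surface. With 2 libraries a group, no exact test over libraries could fall below 0.05, and none was made on the ratios.

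**Figure D3:**
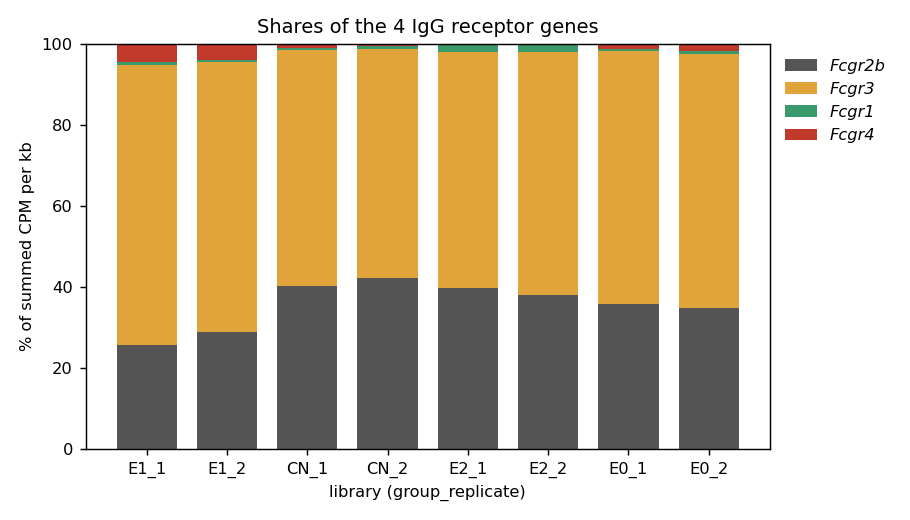
Share in percent (y axis) of the summed CPM per kb taken by Fcgr2b, Fcgr3, Fcgr1 and Fcgr4 in each of the 8 libraries (x axis, group and replicate). Fcgr2b takes 25.7% and 28.8% in E1 and 34.7% to 42.2% in the other 6 libraries.

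Among the scarce receptors, CPM of Fcgr4 over CPM of Fcgr1 in the same library moved most. That ratio was 3.80 and 3.23 in E1, against 0.647 and 0.487 in CN, and 0.0918 and 0.0904 in E2, against 1.60 and 1.24 in E0. It was therefore high in E1 and low in E2, each beyond the spread of its 2 libraries. Of the IgG receptors that pair with the γ chain, Fcgr3 had the most transcripts. CPM of Fcer1g over CPM of Fcgr3 was 0.890 and 0.839 in E1, against 0.716 and 0.581 in CN. It was 1.11 and 1.18 in E2, against 0.595 and 0.653 in E0. Both stimulated groups lay above their controls in this ratio. The ratios of this paragraph are not per length, so they compare libraries and do not rank the genes, which was done per kb above.

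Comparisons across the experiments cannot tell group and experiment apart and are given as descriptions of the libraries. E0 against CN differed by 0.80 ± 0.19 on the log2 scale for Fcgr4 (adjusted p = 0.0166, edgeR) and by -0.42 ± 0.13 for Fcgr2b (adjusted p = 0.0442). Of all genes 25.4% were called, 13.5% higher and 11.9% lower, and 65.7% had libraries that did not overlap, as did 3 of the 5 Fc receptor genes. The Fcgr4 call was lost without CN replicate 2 or E0 replicate 2 (adjusted p = 0.0930 and 0.0982), and the Fcgr2b call without CN replicate 2, E0 replicate 1 or E0 replicate 2 (adjusted p = 0.221, 0.133 and 0.164). Fcgr1 was called when E0 replicate 2 was left out (log2 -0.98, adjusted p = 0.00873). E2 against E1 differed by -4.00 ± 0.21 for Fcgr4, a level 16.0-fold lower (adjusted p = 2.55e-06), by 1.27 ± 0.24 for Fcgr1 (adjusted p = 0.00263) and by -0.45 ± 0.09 for Fcgr3 (adjusted p = 0.00317). Of all genes 53.9% were called, 27.3% higher and 26.6% lower, and 77.8% had libraries that did not overlap, as did 4 of the 5 Fc receptor genes. Fcer1g passed in neither comparison.

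Genes listed as markers of other leukocytes moved with the groups, and their part in the Fc receptor results was not tested. Bulk libraries do not tell whether a listed gene, such as Adgre1, came from those leukocytes or from the eosinophils. On the list for dendritic cells, macrophages and monocytes, 16 of 18 markers were measured, 2 of them below 1 CPM in every library. Their sum was 7411 and 6869 CPM in E1, against 3305 and 2903 CPM in CN, and 3860 and 3722 CPM in E2, against 2923 and 3152 CPM in E0. Much of the E1 sum was Ly6c2, a Ly6 surface protein of monocytes, at 4214 and 3784 CPM in E1, against 92.8 and 105 CPM in CN. Most of the sums in the other groups was a single gene, Adgre1. It lay at 1927 and 1796 CPM in E1 and 2336 and 2108 CPM in CN. In E2 it lay at 2883 and 2764 CPM, against 2038 and 1991 CPM in E0. The sums thus rest largely on few genes and do not count cells. Of the 16 markers, 6 were called higher and 2 lower in E1 against CN, and 5 higher and 9 lower in E2 against E0. The shares of all genes called were 17.3% and 35.5%.

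Single markers of that list moved in different ways. Ly6c2 and Mertk, a receptor tyrosine kinase of macrophages, were called higher in E1 and lower in E2, as Fcgr4 was. The other markers called higher in E1 were Csf1r, Cd14, Flt3 and Zbtb46, which unlike Fcgr4 were also called higher in E2. Their log2 fold changes in E1 and in E2 were 0.84 and 0.93 for Csf1r and 2.44 and 1.00 for Cd14. For Flt3 they were 0.80 and 0.82, and for Zbtb46 1.34 and 0.80. Ly6c2 lay at 20.6 and 15.5 CPM in E2, against 53.0 and 37.5 CPM in E0. Mertk lay at 2.46 and 4.65 CPM in E1, against 0.379 and 0.132 CPM in CN, and at 0.399 and 0.257 CPM in E2, against 1.95 and 3.08 CPM in E0. Lyz2, the lysozyme of myeloid cells, lay at 483 and 404 CPM in E1 and 348 and 235 CPM in CN, which did not pass, and at 82.2 and 108 CPM in E2, against 345 and 561 CPM in E0, which was called lower. Cx3cr1, the fractalkine receptor, was called lower in both, at 0.956 and 1.58 CPM in E1, against 4.66 and 3.41 CPM in CN, and 0.352 and 0.772 CPM in E2, against 10.8 and 16.1 CPM in E0. These genes were picked from the list after their values were seen.

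For the other lineages, 13 of 14 neutrophil markers summed to 2276 and 1736 CPM in E1, against 3669 and 3204 CPM in CN, and to 1157 and 1602 CPM in E2, against 3191 and 3993 CPM in E0. Of these 13, 1 was called higher and 7 lower in E1 against CN, and 0 higher and 6 lower in E2 against E0. Over all genes, 17.3% and 35.5% were called in these comparisons. The only one called higher in E1 was Ly6g, a neutrophil surface protein, which was called lower in E2, as Fcgr4 was. Ly6g lay at 64.3 and 62.1 CPM in E1, against 6.60 and 7.05 CPM in CN. It lay at 1.27 and 1.47 CPM in E2, against 4.83 and 5.97 CPM in E0, and was named after its values were seen. All 10 B cell markers summed to 264 and 224 CPM in E1, against 252 and 243 CPM in CN, and to 184 and 149 CPM in E2, against 276 and 264 CPM in E0. Most of each B cell sum was Ighm, the heavy chain of IgM, at 124 and 97.4 CPM in E2, against 239 and 229 CPM in E0. In E2 against E0, 3 of the 10 were called higher (Ms4a1, Cd79b and Cd22) and 1 lower (Ighm), with a median of 0.44. The 9 markers of NK cells, which express Fcgr3, summed to at most 60.6 CPM in any library, and 6 of 11 T cell markers to at most 6.87 CPM. Of 11 basophil and mast cell markers, 9 summed to 142 and 136 CPM in E1, against 107 and 115 CPM in CN, and to 147 and 117 CPM in E2, against 92.1 and 86.9 CPM in E0. Most of each of these sums was Hdc and Gata2. Of the 9 markers, 2 were called higher and 0 lower in E1 against CN. In E2 against E0, 4 were called higher (Hdc, Gata2, Mcpt8 and Cma1) and 0 lower. The shares of all genes called were 17.3% and 35.5%. That list holds Fcer1a, the IgE-binding chain, and Ms4a2, the β chain of the IgE receptor, which did not exceed 1.68 and 2.93 CPM in any library.

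Other genes of Fc receptors, their chains and their relatives were mostly scarce. Because this list also holds chains such as Ms4a2 and relatives such as Fcrls, its counts are not only of antibody-binding receptors. Of 14 on the list 11 were tested, and 1 was higher and 1 lower in E1 against CN, while 5 were called in E2 against E0, each lower. Over all genes, 17.3% and 35.5% were called in these comparisons. The list's medians were -0.55 and -0.72 on the log2 scale. Trim21, the cytosolic receptor for antibody-coated viruses, measured 135 and 115 CPM in E1, against 19.3 and 17.6 CPM in CN (log2 fold change 2.76 ± 0.12, adjusted p = 1.52e-06, edgeR). Fcrls, a scavenger-type relative of the Fc receptors, measured 2.69 and 3.45 CPM in E2, against 13.3 and 14.5 CPM in E0 (log2 fold change -2.18 ± 0.25, adjusted p = 0.000430). Both genes had groups far apart. The other 4 genes called lower in E2, Fcrl1, Fcrla, Fcmr and Fcrlb, lay below 10 CPM in E2 and E0 and are named after their values were seen. Leaving out any 1 of the 4 libraries reduced the 5 genes called lower in E2 to 3.

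The γ chain was set beside a list of other adaptors and receptors, most of them tied to ITAM signalling. Because this list also holds Hcst, whose product DAP10 carries no ITAM, and the inhibitory receptor Pirb, its counts are not only of ITAM signalling. Of 20 tested genes of that list (22 on it), 4 were higher and 5 lower in E1 against CN, and 5 were higher and 9 lower in E2 against E0. These counts stand beside 17.3% and 35.5% of all genes called. The list's medians were -0.18 and -0.48. Of its 4 C-type lectin receptors, Clec4n, Clec4e and Clec5a rose in both, and Clec4d fell by 1.46 in E2 and had -0.47, which did not pass, in E1. Clec4n (Dectin-2), which signals through the γ chain, averaged 16.8 ± 2.20 CPM in E1, against 1.19 ± 0.470 CPM in CN, and 36.7 ± 8.35 CPM in E2, against 10.00 ± 4.04 CPM in E0. Clec4e (Mincle), another γ chain partner, averaged 151 ± 9.17 CPM in E1, against 19.5 ± 1.90 CPM in CN, and 77.4 ± 3.60 CPM in E2, against 31.6 ± 7.94 CPM in E0. The log2 fold changes in E1 and in E2 were 3.81 and 1.87 for Clec4n and 2.95 and 1.29 for Clec4e. Clec5a, which pairs with the adaptors DAP12 and DAP10, rose by 1.61 in E1 and 1.39 in E2.

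The adaptors themselves differed from Fcer1g. Tyrobp, which encodes DAP12, averaged 714 ± 2.98 CPM in E2, against 1047 ± 20.6 CPM in E0 (log2 fold change -0.55 ± 0.08, adjusted p = 0.00144, edgeR), and 1054 ± 69.7 CPM in E1 and 1053 ± 37.9 CPM in CN. Hcst, which encodes DAP10, fell in E2 by 0.73 on the log2 scale. Cd300c2, an activating CD300 receptor, was called higher in E1 (0.63) and lower in E2 (-0.85), and the E1 call was lost whichever of the 4 libraries was left out (adjusted p = 0.0923 to 0.136). Cd300ld was called higher in E2 (0.35), a call lost without E0 replicate 1, E2 replicate 1 or E2 replicate 2 (adjusted p = 0.0753 to 0.187). The 5 genes called lower in E1 were Trem1, Trem2 and the related Sirpb1a, Sirpb1b and Sirpb1c, named after their values were seen. Their group means lay below 10 CPM in E1 and CN, and reads of the Sirpb1 genes may be split between these close copies. The number of genes of this list called higher in E2 was 3 or 4 without 1 library, and the number called lower in E1 was 3 to 6.

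Signalling proteins that act below activating Fc receptors gave 5 higher and 3 lower genes of 29 in E1 against CN, and 9 higher and 3 lower in E2 against E0. Among all tested genes, 17.3% were called in E1 against CN and 35.5% in E2 against E0. The list's medians were -0.01 and 0.19. The Src family kinase Fgr averaged 501 ± 2.91 CPM in E1, against 284 ± 32.4 CPM in CN, and 549 ± 5.37 CPM in E2, against 283.8 ± 7.80 CPM in E0, and was called in both (log2 fold changes 0.82 and 0.95). Pik3cd, the leukocyte catalytic subunit of PI3-kinase, went opposite ways, at 785 ± 21.3 CPM in E1, against 1142 ± 29.4 CPM in CN, and 1350 ± 60.4 CPM in E2, against 781 ± 26.0 CPM in E0. Its difference of responses was 1.33 (adjusted p = 0.000106, edgeR). In E1 the adaptor Sh3bp2 rose by 1.42, the kinase Fyn by 0.81 and the NF-κB scaffold protease Malt1 by 0.73, while the regulatory subunit Pik3r1 fell by 0.43. In E2 the kinase Tec rose by 1.31 and the adaptor Gab2 fell by 0.80, a call lost without E2 replicate 2 (adjusted p = 0.0728).

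Smaller calls of that list were lost in fits without 1 library. Such fits leave 1 library, and so 1 sex, in a group, and they gave fewer calls among all genes as well. The same limit holds for the left-out libraries of the other lists. Vav3 in E1 (-0.31) and Vav2 in E2 (0.70), both guanine nucleotide exchange factors, were lost whichever library was left out, with adjusted p-values of 0.0683 to 0.240 and 0.0526 to 0.157. Plcg1, a phospholipase, in E2 (-0.33) was lost without E0 replicate 1, E0 replicate 2 or E2 replicate 2 (adjusted p = 0.0759 to 0.260). Pik3r5 in E2 (-0.29) was lost without E0 replicate 2 or E2 replicate 1 (adjusted p = 0.0503 and 0.0556). Without 1 library the list gave 5 or 6 genes higher and 1 or 2 lower in E2.

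Inhibitory signalling proteins gave 4 higher and 1 lower gene of 16 in E1 against CN, and 5 higher and 4 lower in E2 against E0. Their medians were -0.10 and -0.06, and the shares of all genes called were 17.3% and 35.5%. Ptpn6, the phosphatase SHP-1, averaged 1102 ± 34.6 CPM in E2, against 594 ± 11.0 CPM in E0 (log2 fold change 0.89 ± 0.12, adjusted p = 0.000969, edgeR), and 702 ± 73.8 CPM in E1 and 644 ± 103 CPM in CN. The related phosphatase Ptpn11 (SHP-2) rose by 0.72 in E2. Pag1, the anchor of the Src-inhibiting kinase Csk, averaged 9.89 ± 2.40 CPM in E2, against 38.7 ± 10.4 CPM in E0 (log2 fold change -1.97 ± 0.22, adjusted p = 0.000373), and the phosphatase Ptpn22 fell by 0.52. Inpp5d, which encodes the SHIP-1 that Fcgr2b recruits, did not pass in either comparison, with log2 fold changes of -0.09 and -0.18.

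Other calls among the inhibitory genes were lost without single libraries. In E2, Dok2 (0.71) and Csk (0.27) were lost whichever library was left out, with adjusted p-values of 0.0598 to 0.0907 and 0.0951 to 0.140, and Rasa1 (-0.33) was lost without E0 replicate 1, E0 replicate 2 or E2 replicate 1 (adjusted p = 0.0504 to 0.0707). In E1, Cblb (0.48) was lost without CN replicate 1 or E1 replicate 2 (adjusted p = 0.0647 and 0.0783). Dok1 (0.45) was lost without CN replicate 1, CN replicate 2 or E1 replicate 1 (adjusted p = 0.0750 to 0.115), and Ubash3b (0.34) without CN replicate 2, E1 replicate 1 or E1 replicate 2 (adjusted p = 0.0823 to 0.193). Whichever library was left out, 1 gene of this list was called higher in E1 and 3 were called higher in E2.

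Of 19 genes of the phagocytic cup and actin machinery, 3 were higher and 1 lower in each comparison, beside the 17.3% of all genes called in E1 against CN and the 35.5% called in E2 against E0, with medians of 0.06 and 0.08. Rac2, a GTPase of leukocytes, averaged 1241 ± 28.5 CPM in E2, against 846 ± 0.722 CPM in E0 (log2 fold change 0.55 ± 0.09, adjusted p = 0.00183, edgeR). The other 2 called higher in both comparisons, Myo1e and Myo10, are unconventional myosins whose group means lay below 10 CPM, and they are named after their values were seen. Arf6 (0.53) and Gsn (-0.43), a membrane GTPase and an actin-severing protein, were called in E1. The Arf6 call was lost without CN replicate 2 or E1 replicate 1 (adjusted p = 0.0585 and 0.0673) and the Gsn call without CN replicate 1 or E1 replicate 2 (adjusted p = 0.0551 and 0.0810). The phospholipase Pld1 was called in E2 (-0.30), a call lost without E0 replicate 1, E2 replicate 1 or E2 replicate 2 (adjusted p = 0.0725 to 0.214).

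Of 5 transcription factors known at Fc receptor genes, 3 were called in E1 against CN, each higher. In E2 against E0, 3 were higher and 1 lower. The medians were 2.45 and 0.41, and the shares of all genes called were 17.3% and 35.5%. Irf1, an interferon regulatory factor that binds the ISRE, averaged 1427 ± 144 CPM in E1, against 76.1 ± 0.411 CPM in CN, and 75.6 ± 4.38 CPM in E2, against 56.8 ± 2.60 CPM in E0. Its log2 fold change was 4.23 in E1 and 0.41 in E2. Irf8, a myeloid member of the same family, rose by 2.45 in E1 and was called in E2 at 0.74. Stat6, which acts below the IL-4 receptor, averaged 265 ± 10.0 CPM in E2, against 425 ± 9.49 CPM in E0 (log2 fold change -0.68 ± 0.10, adjusted p = 0.00128, edgeR). The Irf1 call in E2 was lost without E0 replicate 1 or E2 replicate 2 (adjusted p = 0.0715 to 0.0755), and the Irf8 call without E0 replicate 1, E2 replicate 1 or E2 replicate 2 (adjusted p = 0.0758 to 0.128).

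**Figure D4:**
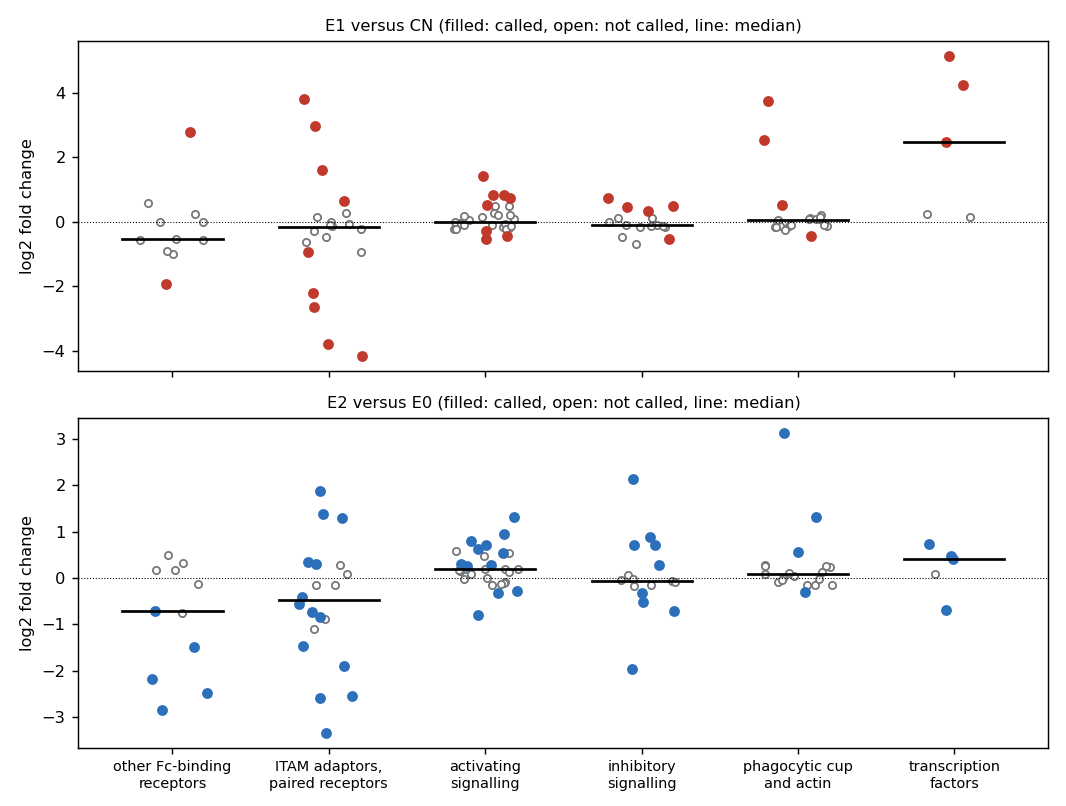
Log2 fold change (y axis) of each tested gene of the 6 lists around the Fc receptors (x axis), in E1 versus CN (upper panel) and E2 versus E0 (lower panel). Filled points passed the test, open points did not, and lines are list medians. The signalling and actin lists lie close to 0, with medians from -0.10 to 0.19, while the transcription factor list has its median at 2.45 in E1.

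Genes whose profiles over the 8 libraries were most like each Fc receptor gene were ranked by the root mean square difference of centred log2(CPM + 0.1) profiles, among 7849 genes with a mean of at least 10 CPM. Nearest to Fcgr4 were Mpeg1, which encodes perforin-2, at 0.405, Slfn5 at 0.464 and Ifitm3, an interferon-induced membrane protein, at 0.466. These distances were the largest of the 5 genes, so even the nearest of these candidates was not close. With a minimum of 1 CPM only 1 of the 3 names was kept, and scarcer genes took the other places. Mpeg1 averaged 642 CPM in E1, 147 CPM in CN, 88.8 CPM in E2 and 322 CPM in E0, with the same order of groups as Fcgr4. Nearest to Fcgr1 were Cables2 at 0.193, the costimulatory ligand Cd80 at 0.203 and the IL-10 receptor chain Il10ra at 0.216. For Fcgr2b these were Rab11fip5 at 0.110, Rexo5 at 0.111 and Galnt6 at 0.116. Fcer1g lay close to Batf at 0.0468, Slc31a2 at 0.0473 and Pofut2 at 0.0595, and Fcgr3, the flattest of the 5, to Wdfy1 at 0.0388, Tex261 at 0.0455 and Ing1 at 0.0462. The measure is a description over 8 libraries that share their depth and culture.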

How the data were processed

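The authors deposited unnormalized read counts, 1 row per Ensembl gene. STAR, featureCounts and mm10 come from the submitters' processing notes. Versions, annotation, strand setting and the handling of multi-mapping reads are not given in those sources. Of 15918 rows, 1 had no gene name, equalled the column totals (100% of the counts) and was left out. Of the 15917 gene IDs, 15730 matched a symbol and 187 did not. Positions and exon lengths are from GENCODE M21 (mm10), promoters from RefSeq (GRCm38.p6).

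Differences between groups were tested on the counts with edgeR 4.0.16 (R 4.3.3): filterByExpr (4 genes removed, 15913 left), TMM scaling, a mean for each of the 4 groups fitted to the 8 libraries together, leaving 4 residual degrees of freedom, and the two-sided quasi-likelihood F test. Calls were made where the p adjusted over all genes after Benjamini and Hochberg was below 0.05. The SE is the log2 fold change over the square root of F. The text names, from each list, up to 4 called genes each way whose groups did not overlap and whose higher group reached 10 CPM.

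With library totals in place of TMM scaling, the median of all genes was -0.11 in E1 versus CN and 0.16 in E2 versus E1. The share of calls that were higher was 53.2% with TMM and 38.6% with totals in E1 versus CN, 53.0% and 66.8% in E0 versus CN, and 50.6% and 63.6% in E2 versus E1. Every Fc receptor gene called in E1 versus CN or E2 versus E0 kept its direction and call under both.

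Alternatives were DESeq2 1.42.0, other scalings and filters, the 4 libraries of a contrast alone, left-out libraries and a replicate block. Members, lists and tests were chosen with earlier results of these data known. Protein sequences were not used here. Values of a few listed genes are not reported here.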

Additional observations from a re-analysis of the deposited data

Results flagged for a closer look

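Fcgr1, Fcgr2b and Fcgr4 responded differently to the cytokine mixes by the test of the difference itself (the change of E2 over E0 minus the change of E1 over CN, log2 scale, edgeR). Fcgr4 differed by -4.80 ± 0.28 (SE, adjusted p = 1.33e-05), since it was higher in both E1 than in both CN libraries and lower in both E2 than in both E0 libraries. Fcgr1 differed by 1.74 ± 0.34 (adjusted p = 0.00711) and was higher in both E2 libraries than in both E0 libraries. Fcgr2b differed by 0.67 ± 0.18 (adjusted p = 0.0261) and was lower in both E1 libraries than in both CN libraries. With 2 libraries a group, no search for single outlying libraries was made.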

How the results depend on the processing

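Changes of Fcgr4, Fcgr1, Fcer1g and Fcgr2b in E1 versus CN and in E2 versus E0 kept their direction and their side of the threshold under all 11 alternatives run for each. Values that passed no test changed sign for Fcer1g in E2 versus E1 (0.10 with library totals, 0.035 without E2 replicate 1, -0.12 at the lowest), for Fcer1g in the difference of responses (-0.010 without E0 replicate 1, -0.018 without E2 replicate 2, 0.14 at the highest) and for Fcgr3 in E0 versus CN (0.0047 with library totals, 0.060 without CN replicate 2, -0.17 at the lowest). The cause of the changes that follow was not tested. With the 4 libraries of the contrast alone, 775 genes were lower in E1 versus CN (1286 with all 8) and Fcgr2b in E0 versus CN had -0.42 (adjusted p = 0.0630). DESeq2 called Fcgr3 in the difference of responses (-0.39, adjusted p = 0.0187). With at least 1 CPM in 2 libraries Fcgr3 was called there too (-0.40, 0.0468) and Fcgr2b in E0 versus CN was not (-0.41, 0.0513). With library totals Fcgr2b had -0.35 in E0 versus CN (0.0805) and 0.40 in E2 versus E1 (0.0285).

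Replicate numbers 1 and 2 recur in every group. Same-numbered libraries deviated together (r = 0.860 for E1 and CN and 0.898 for E2 and E0, across 8515 genes), and the numbers also split the libraries by sex. The labels tie the numbers to no animal, but the difference of sex is in the libraries themselves. The main fit did not model it and left it in the spread. The block, which fits the number within each experiment, was run as an alternative. With it, 5521 genes were called in E1 versus CN (2787 higher, 2734 lower; 2749, 1463 and 1286 without it), 8514 in E2 versus E0 (4145 higher; 5655 and 2711 without it), 6821 in the difference of responses (3213 higher, 3608 lower; 4018, 1798 and 2220 without it) and 7476 in E0 versus CN (3818 higher, 3658 lower; 4038, 2141 and 1897 without it). The block also called Fcgr3 in the difference of responses (-0.39, adjusted p = 0.00253), Fcgr1 in E0 versus CN (-0.51, 0.0255) and Fcgr2b in E2 versus E1 (0.26, 0.000488).

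Leaving out 1 library gave log2 values for E0 versus CN of -0.98 to -0.11 for Fcgr1, -0.58 to -0.24 for Fcgr2b and 0.52 to 1.03 for Fcgr4, with 2235 to 2988 genes called (1282 to 1608 higher, 896 to 1380 lower). In E1 versus CN 743 to 1010 genes were lower. In E2 versus E0 Fcgr3 had -0.31 to -0.25, and 3334 to 3984 genes were called (1569 to 1901 higher, 1765 to 2083 lower). In the difference of responses Fcgr2b had 0.50 to 0.82, Fcgr3 -0.51 to -0.29, and 1177 to 1753 genes were higher. A lone library left in a group is assumed to vary like the others. Being of 1 sex, it also stood against a group that held both.

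Depth did not limit the scarce genes to their floor, since the lowest, Fcgr4 in E2, still had 107 counts. The order per length, Fcer1g above Fcgr3 above Fcgr2b above the scarce pair, held in all 8 libraries with the longest transcript as length and with library totals. Within that pair Fcgr4 and Fcgr1 changed places, as described above. With a minimum of 1 CPM, the 3 nearest profiles kept all 3 names for Fcgr2b and Fcgr3, 2 for Fcer1g, and 1 each for Fcgr1 and Fcgr4.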
